A study of Mus musculus with 8 samples.

Results

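Of the Bcl2 family members, Mcl1 held the probe that differed most in NIH3T3 fibroblasts given cordycepin before serum. Its 2 array probes did not change by the same amount. The reference probe fell 2.11-fold against serum alone, close to the falls of Bcl2l1 (1.94-fold) and Bbc3 (1.88-fold). A second Mcl1 probe 1312 bases nearer to the 5′ end of the gene fell 13.5-fold. The other prosurvival members, Bcl2 and Bcl2l1, were lower by less than 2-fold, and the effectors Bax and Bak1 did not pass the test in any comparison. The set comprised 10 genes, chosen by name and measured by 14 of the 55681 non-control probes of the array: Mcl1, Bcl2, Bcl2l1, Bax, Bak1, Bcl2l11, Bbc3, Pmaip1, Bad and Bid. All 14 probes were well above background on all 8 arrays, so every member was measured in every sample.

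Proteins of the Bcl2 family control the permeability of the outer mitochondrial membrane, the step that releases cytochrome c and starts the intrinsic pathway of apoptosis. BAX and BAK, products of Bax and Bak1, form the pores. MCL1, BCL2 and BCL-XL, the last encoded by Bcl2l1, bind and restrain them, and the BH3-only proteins BIM (Bcl2l11), PUMA (Bbc3), NOXA (Pmaip1), BAD and BID either occupy the prosurvival proteins or engage the effectors directly. MCL1 protein and Mcl1 mRNA are both short-lived, and in fibroblasts Mcl1 is known as a gene induced early by growth factors.

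NIH3T3 cells are an immortalised line of mouse embryonic fibroblasts. All groups were grown on 15 cm plates in 10% newborn bovine serum and then kept for 24 h in 0.5% serum. The cordycepin plus serum group (n = 3) received 20 µM cordycepin in DMSO, an adenosine analogue that lacks the 3′ hydroxyl group used for RNA chain elongation. Per the labels serum was added 60 min later for 30 min, so that exposure to cordycepin lasted 90 min. The study's own legend words the schedule differently, with serum following the full cordycepin period, and the files do not settle which was used. The serum group (n = 3) received 0.1% DMSO and the same serum, and the no serum group (n = 2) was starved only, its labels not stating a vehicle. No array of cells with cordycepin and without serum was analysed here, which limits every statement on cordycepin to serum-treated cells of 1 line at 1 time point. The series describes the treated samples as an independent triplicate without naming separate passages, so that p-values measure the spread between these samples.

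Total RNA was labelled with Cy3 and hybridised to 1-colour Agilent arrays. Levels below are log2 processed signals minus the 75th percentile of that array. A level of 0 is therefore the 75th percentile, and levels of different probes are not comparable with each other. A probe was called at a limma adjusted p under 0.05, over 30859 tested probes, together with a log2 fold change of 1 or more in either direction. The 75th percentile itself was 302.2 to 692 intensity units, and each array had 51.1 to 57.1% of its probes well above background. Of 9 fibroblast markers, 8 were well above background on every array, and Fap was not above it on any. Of 4 epithelial markers, 1 was above background on all cordycepin arrays, 0 on all serum arrays and 2 on both arrays without serum, Krt8 being above it on 3, 2 and 2 arrays, Cldn4 on both arrays without serum alone and Cdh1 on none. Their summed level was -3.56 to -3.30, -3.78 to -3.40 and -3.53 to -3.04 in that order. Of 4 endothelial markers 3 were above background on all arrays (Pecam1, Kdr and Tek) and Cdh5 on none, with summed levels of 2.68 to 2.86, 2.53 to 3.02 and 2.65 to 2.89. Of 5 haematopoietic markers 3 were above background on all arrays. The summed haematopoietic level was 4.96 to 5.29 with cordycepin, 4.14 to 4.34 with serum and 4.02 to 4.41 without. Of these markers Cd68, a lysosomal protein of macrophages, had a mean of 3.15 with cordycepin and 0.13 with serum, and Itgam had 4.65 and 4.03. The part of this in the results for the Bcl2 family was not tested. In RNA from whole plates, a loss of cells of a type and less RNA per cell cannot be told apart.

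The 2 Mcl1 probes are shown first because the results turn on them. Per the files both lie on the + strand of chromosome 3 in build mm9, the reference probe at chr3:95466855-95466914 and the second at chr3:95465543-95465602. The files state neither the exon nor the untranslated region that a probe falls in. The first 30 of the 60 bases of each are given 5′ to 3′, with no part in capitals because no motif was marked.
Mcl1 reference probe: gctgcttggaaagatggctctcagcaaaat
Mcl1 second probe: tgcagcttctctagttagaaatgtatttct
The reference probe, defined for each gene as its brightest tested probe by the mean of all 8 arrays, had a GC content of 45%, and the second had 35%.

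Whether cordycepin altered the serum-treated level of Mcl1 was examined first. On the reference probe, Mcl1 had levels of 4.85, 4.93 and 4.47 on the cordycepin arrays, 6.06, 5.77 and 5.67 on the serum arrays, and 5.08 and 5.12 without serum. All cordycepin arrays lay below all others, and the serum arrays were the highest. The difference between cordycepin plus serum and serum was -1.08 ± 0.16 (SE, 95% confidence interval -1.45 to -0.71, adjusted p = 0.0018). This probe lay close to the fold limit. Without cordycepin array 3 the difference was -0.94, and without serum array 1 it was -0.97, so that the call was lost through size alone. Centring on spike-in probes gave -1.14 with an adjusted p of 0.317, which also ended the call, so that Mcl1 was called on this probe under 17 of 20 alternatives. Alternatives that only relaxed a threshold could not end the call, and leaving out a no serum array could not move the difference.

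The second Mcl1 probe separated the groups much further. Its levels were -0.16, 0.15 and 0.05 with cordycepin, 3.84, 3.72 and 3.73 with serum, and 2.66 and 2.70 without serum. The 3 groups did not overlap, and the cordycepin arrays were below the starved cells as well. The difference from serum was -3.75 ± 0.12 (SE, adjusted p = 6.18e-06), and it was called under each of the 20 alternatives tried, with values from -3.82 to -3.61.

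The unequal change of both probes was tested within arrays, where the scaling of an array cancels. The second probe minus the reference probe gave differences of -5.01 to -4.42 on the cordycepin arrays, -2.21 to -1.94 on the serum arrays and -2.43 to -2.42 without serum. The cordycepin arrays thus stood apart from the other 5. Relative to serum the shift was -2.67 ± 0.16 (SE, 95% confidence interval -3.05 to -2.29, adjusted p = 0.00023), a 6.36-fold unequal change. Among 9222 probe pairs of 6058 genes, 6.52% were called unequal in this comparison, and the Mcl1 pair ranked 100 by size and 15 among the pairs whose other probe dropped more than the reference probe. Under the 16 alternatives run for the pair the shift stayed between -2.83 and -2.49 and was called in all of them.

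**Figure D1:**
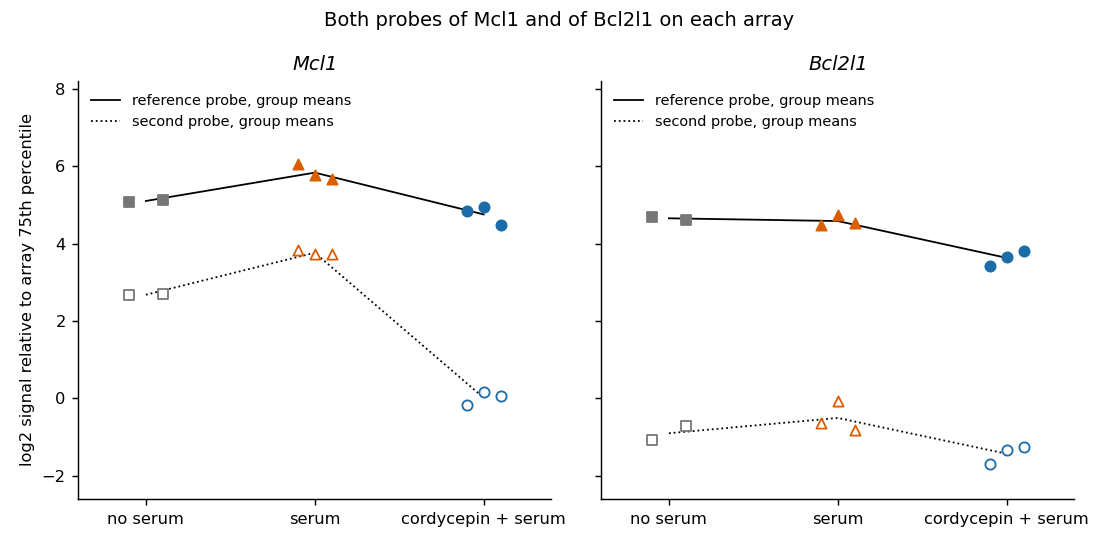
Level of each array on the reference probe (filled symbols, solid line through the group means) and the second probe (open symbols, dotted line) of Mcl1 and Bcl2l1, as log2 signal relative to the 75th percentile of the array, for no serum (n = 2), serum (n = 3) and cordycepin plus serum (n = 3). The second Mcl1 probe dropped to between -0.16 and 0.15 with cordycepin while the reference probe stayed between 4.47 and 4.93, whereas the 2 Bcl2l1 probes ran parallel from serum to cordycepin.

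Among the members with 2 probes, Bcl2l1, which encodes BCL-XL, gave the opposite outcome to Mcl1. Its probes lie on the - strand of chromosome 2 (mm9), the reference probe at chr2:152606404-152606463 and the second 48781 bases away on the 5′ side at chr2:152655185-152655244. They are shown because they sample distant parts of the gene and still changed alike. Capitals mark AATAAA, the usual polyadenylation hexamer, which begins at base 34 of the reference probe. Of that probe the 30 bases around the hexamer are printed, and the second probe is printed whole.
Bcl2l1 reference probe, around the hexamer: gtgcagttcagtAATAAAtggtgtctgtga
Bcl2l1 second probe: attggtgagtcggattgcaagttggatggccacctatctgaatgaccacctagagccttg

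On the reference probe Bcl2l1 had levels of 3.43, 3.64 and 3.82 with cordycepin, 4.48, 4.73 and 4.53 with serum, and 4.69 and 4.61 without serum. The cordycepin arrays were the lowest, and the serum arrays overlapped those without serum. The difference from serum was -0.95 ± 0.13 (SE, adjusted p = 0.0014), a 1.94-fold lower level, just under the fold limit. On the second probe the levels were -1.69, -1.35 and -1.26 with cordycepin, -0.63, -0.08 and -0.81 with serum, and -1.09 and -0.72 without serum. The difference from serum was -0.93 ± 0.22 (SE, adjusted p = 0.0188). Neither probe was called in this comparison. Leaving out cordycepin array 3 brought both past the limit, to -1.05 and -1.01, as did leaving out serum array 1 for the reference probe (-1.0) and serum array 3 for the second (-1.08). The shift between them was 0.03, with a 95% confidence interval of -0.38 to 0.44, so the interval covers only unequal changes much smaller than that of Mcl1. The pairs of Bad (-0.01, interval -0.36 to 0.35) and Bcl2l11 (0.21, interval -0.21 to 0.62) were not called either, which left 1 of 4 member pairs called.

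**Figure D2:**
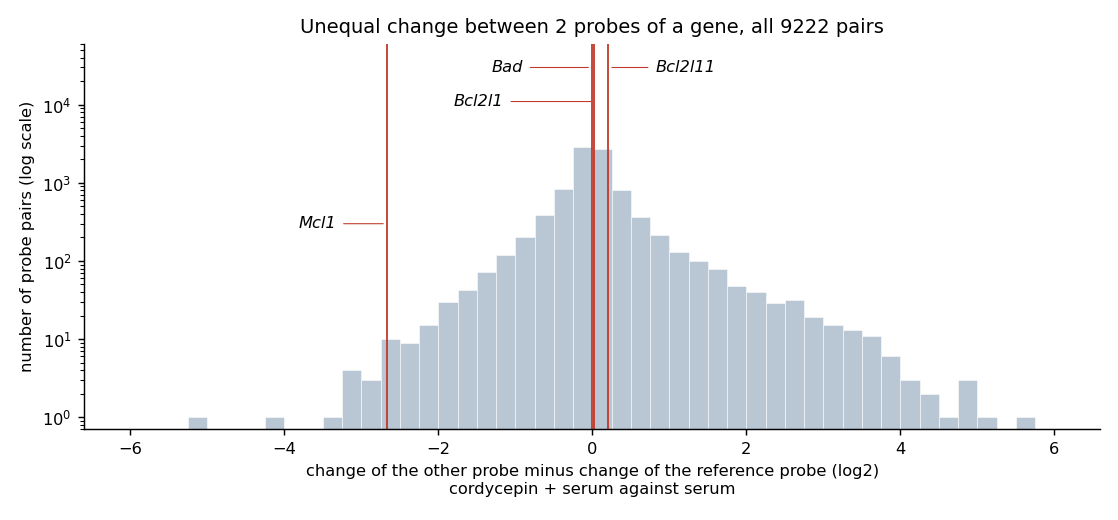
Histogram of 9222 probe pairs by the change of the other probe minus the change of the reference probe of the same gene (log2, cordycepin plus serum against serum), with the number of pairs on a log scale and the 4 member pairs as red lines. Mcl1 lies at -2.67 in the sparse left tail, and Bad, Bcl2l1 and Bcl2l11 lie at -0.01, 0.03 and 0.21.

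Bcl2, the founding prosurvival member, has a single probe at chr1:108608970-108609029 (mm9, - strand). Its levels were 1.21, 0.96 and 0.78 with cordycepin, 1.73, 1.85 and 1.47 with serum, and 1.12 and 1.38 without serum. All cordycepin arrays lay below all serum arrays, and they overlapped the starved cells. The difference from serum was -0.70 ± 0.16 (SE, adjusted p = 0.0165), a 1.63-fold lower level that was not called. This adjusted p stayed under 0.05 in 14 of 20 alternatives. It passed 0.05 without cordycepin array 2 (0.0515) or 3 (0.0564), without serum array 1 (0.0566) or 2 (0.0556), without the filter on dim probes (0.0612) and with spike-in centring (0.944). On the reference probe the 3 prosurvival members were lower by 1.63- to 2.11-fold, each at an adjusted p under 0.05 with all arrays, against 7.71% of all tested probes, and Mcl1 alone reached the fold limit.

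The effectors did not pass the test. Bax (chr7:52717122-52717181, - strand) had a mean level of 4.28 ± 0.12 (SD, n = 3) with cordycepin, 4.16 ± 0.23 (SD, n = 3) with serum and 4.17 ± 0.36 (SD, n = 2) without serum. Bak1 (chr17:27156807-27156866, - strand) had 3.93 ± 0.20, 3.90 ± 0.14 and 4.0 ± 0.10 in the same order. The groups overlapped for both genes. The 95% confidence interval of the cordycepin difference was -0.27 to 0.52 for Bax and -0.29 to 0.35 for Bak1, which leaves out a 2-fold change in either direction for both.

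Of the 5 BH3-only members, Bbc3 was the one with an adjusted p under 0.05 for cordycepin against serum. Bbc3 encodes PUMA, a target of p53 that binds all prosurvival proteins, and its probe lies at chr7:16903403-16903462 (+ strand). Its levels were 1.09, 1.23 and 1.59 with cordycepin, 2.26, 1.88 and 2.50 with serum, and 2.92 and 2.67 without serum. The groups formed 3 steps that did not overlap, with starved cells highest. The difference between cordycepin plus serum and serum was -0.91 ± 0.20 (SE, adjusted p = 0.0122), under the fold limit. It was past the limit without cordycepin array 3 (-1.06) or serum array 2 (-1.08).

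Pmaip1 encodes NOXA, which binds MCL1 and promotes its degradation. Its probe is on chromosome 18 (66625088 to 66625147, + strand). Levels were -3.25, -3.41 and -3.47 with cordycepin, -2.87, -3.14 and -2.54 with serum, and -4.63 and -4.09 without serum. The starved arrays were the lowest and the serum arrays the highest. The cordycepin difference from serum was -0.53 ± 0.19 (SE), with an adjusted p of 0.101.

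Bcl2l11, Bad and Bid did not pass the test in this comparison. The reference probe of Bcl2l11, the gene of BIM, differed by -0.46 ± 0.18 (SE, adjusted p = 0.120) and its second probe by -0.25 ± 0.22. The files give no position for either probe. Bad, whose product is held inactive by growth factor kinases, differed by 0.21 ± 0.13 on its reference probe (chr19:7026323-7026382, + strand) and by 0.20 ± 0.12 on a second probe without a position in the files. Bid, which caspase 8 cleaves to link death receptors with mitochondria, differed by -0.31 ± 0.15 (chr6:120843464-120843523, - strand). The 95% confidence intervals of all 5 probes stayed within 1 log2 unit of 0.

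**Figure D3:**
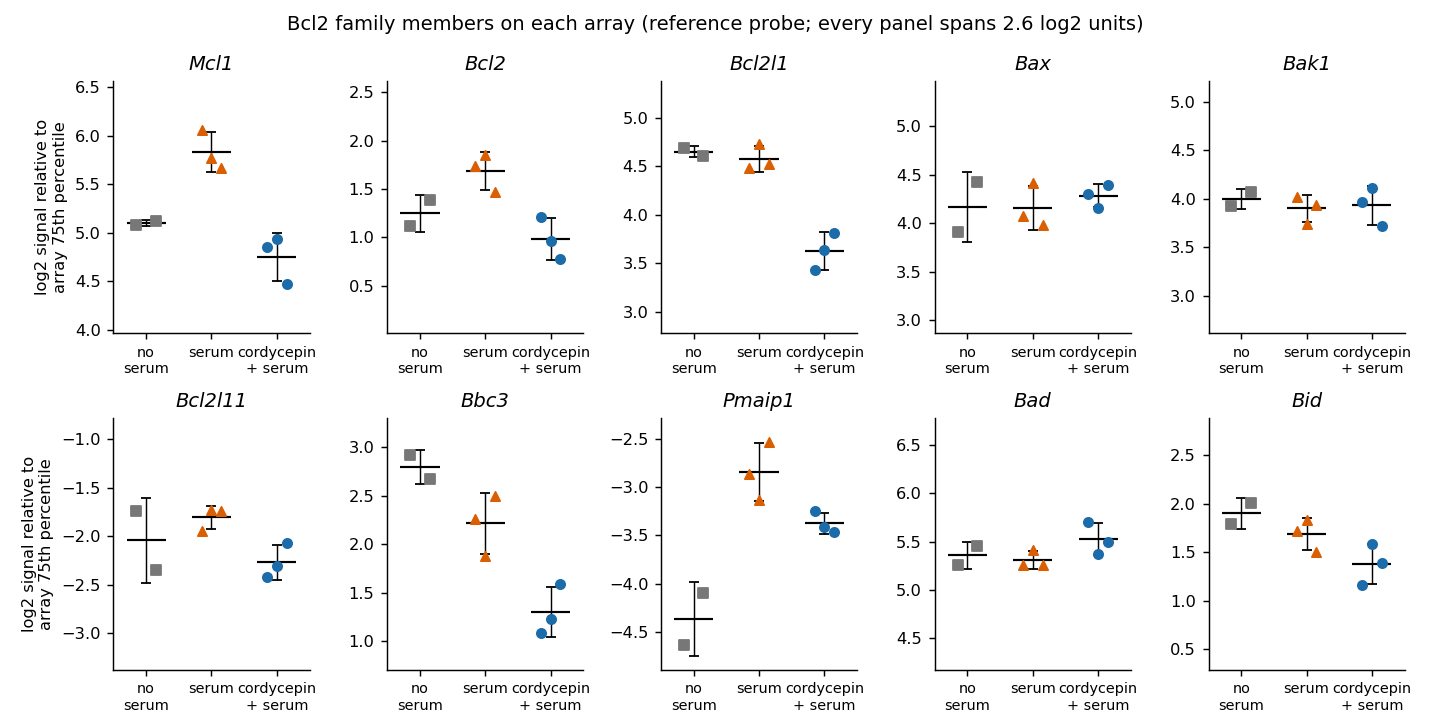
Level of each member on each array (reference probe), as log2 signal relative to the 75th percentile of the array, for no serum (n = 2, squares), serum (n = 3, triangles) and cordycepin plus serum (n = 3, circles), with horizontal lines at the mean and bars of 1 SD. Mcl1, Bcl2, Bcl2l1, Bbc3, Bcl2l11 and Pmaip1 were lower on every cordycepin array than on every serum array. Of these, Bcl2l11 and Pmaip1 did not have an adjusted p under 0.05. The share of all tested probes that separate in this way was not counted. Pmaip1 was lowest without serum, and Bax, Bak1 and Bad overlapped between all groups.

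Counted over the 10 members on the reference probe, 1 was called lower and 0 higher for cordycepin plus serum against serum. Over all 30859 tested probes, 2.99% were called lower and 7.56% higher. By the adjusted p alone, 4 of 10 members were lower (Mcl1, Bcl2, Bcl2l1 and Bbc3) and 0 higher, against 7.71% of all probes lower and 11.7% higher. At an unadjusted limma p under 0.05, 6 were lower and 0 higher, against 12.6% and 18.5% of all probes. With spike-in centring none of the 4 had an adjusted p under 0.05. The median log2 fold change was -0.49 over the members and 0.09 over all tested probes. By role, the medians were -0.95 for the 3 prosurvival genes, 0.08 for the 2 effectors and -0.46 for the 5 BH3-only genes.

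The response to serum alone was examined next, against starved cells. Pmaip1 had the lowest signal of the reference probes, with a mean level of -4.36 without serum and -2.85 with serum. It rose by 1.51 ± 0.22 (SE, adjusted p = 0.0119), a 2.86-fold higher level. Pmaip1 was the member called higher on the reference probe, 1 of 10 against 0.878% of all probes. By the adjusted p alone the count was also 1, against 1.17%. This call did not hold under normexp background correction (0.69, adjusted p = 0.0987) or without no serum array 1 (1.25, adjusted p = 0.0842), and over 20 alternatives, of which 15 kept the call, the adjusted p ran from 0.0064 to 0.855. The second probe of Mcl1 rose by 1.09 ± 0.13 (SE, adjusted p = 0.0054), while the reference probe differed by 0.73 ± 0.18 (SE, adjusted p = 0.0957), with all serum arrays above both starved arrays on either probe. The call of the second probe was lost without no serum array 1 (adjusted p = 0.0504) and with spike-in centring (0.74, adjusted p = 0.855). The unequal change between the Mcl1 probes was 0.35 ± 0.18 (adjusted p = 0.869), in a comparison in which 0.347% of all pairs were called.

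No member was called lower by serum, against 0.898% of all probes, and by the adjusted p alone 0 were lower, against 1.16%. At an unadjusted limma p under 0.05, 1 was lower (Bbc3) and 3 were higher (Mcl1, Bcl2 and Pmaip1), against 6.11% and 4.19% of all probes. Bbc3 differed by -0.58 ± 0.22 (SE, adjusted p = 0.364), Bcl2 by 0.43 ± 0.18 (adjusted p = 0.438) and Bcl2l1 by -0.07 ± 0.15 on the reference probe. The median over the members was -0.03, and -0.01 over all tested probes. With 2 arrays without serum, differences under the 2-fold limit had wide intervals, from -1.08 to -0.08 for Bbc3 for example.

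Cordycepin plus serum was then set against starved cells, a comparison that shares its arrays with both others. Bbc3 fell by 1.49 ± 0.22 on the log2 scale (SE, adjusted p = 0.0025), a 2.82-fold lower level, and remained called under all 20 alternatives. Bcl2l1 fell by 1.02 ± 0.15 (SE, adjusted p = 0.0025) on the reference probe, whereas its second probe differed by -0.53 ± 0.24 (adjusted p = 0.209). These were the 2 of 10 members called lower, against 3.08% of all probes, and 0 were called higher, against 6.46%. At an unadjusted limma p under 0.05, 3 were lower and 1 was higher, against 11.3% and 15.5% of all probes. By the adjusted p alone the same 2 members were lower, against 6.15% of all probes. The Bcl2l1 call was lost through size without cordycepin array 1 (-0.92) or no serum array 1 (-0.98), and with spike-in centring through its adjusted p (-1.43, adjusted p = 0.215).

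On the reference probe Mcl1 did not differ detectably between cordycepin plus serum and no serum (-0.35 ± 0.18, SE, adjusted p = 0.256), and neither did Bcl2 (-0.27 ± 0.18, adjusted p = 0.384). The second Mcl1 probe was 6.34-fold lower than in starved cells (-2.66 ± 0.13, SE, adjusted p = 2.49e-05). The shift between the Mcl1 probes was -2.32 ± 0.18 (adjusted p = 0.00102), and 5.14% of all pairs were called here. Pmaip1 differed by 0.99 ± 0.22 (SE, adjusted p = 0.0171), short of the fold limit, which it passed without cordycepin array 2 (1.0), cordycepin array 3 (1.03) or no serum array 2 (1.25). By the adjusted p alone it was the 1 member higher, against 9.07% of all probes.

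**Figure D4:**
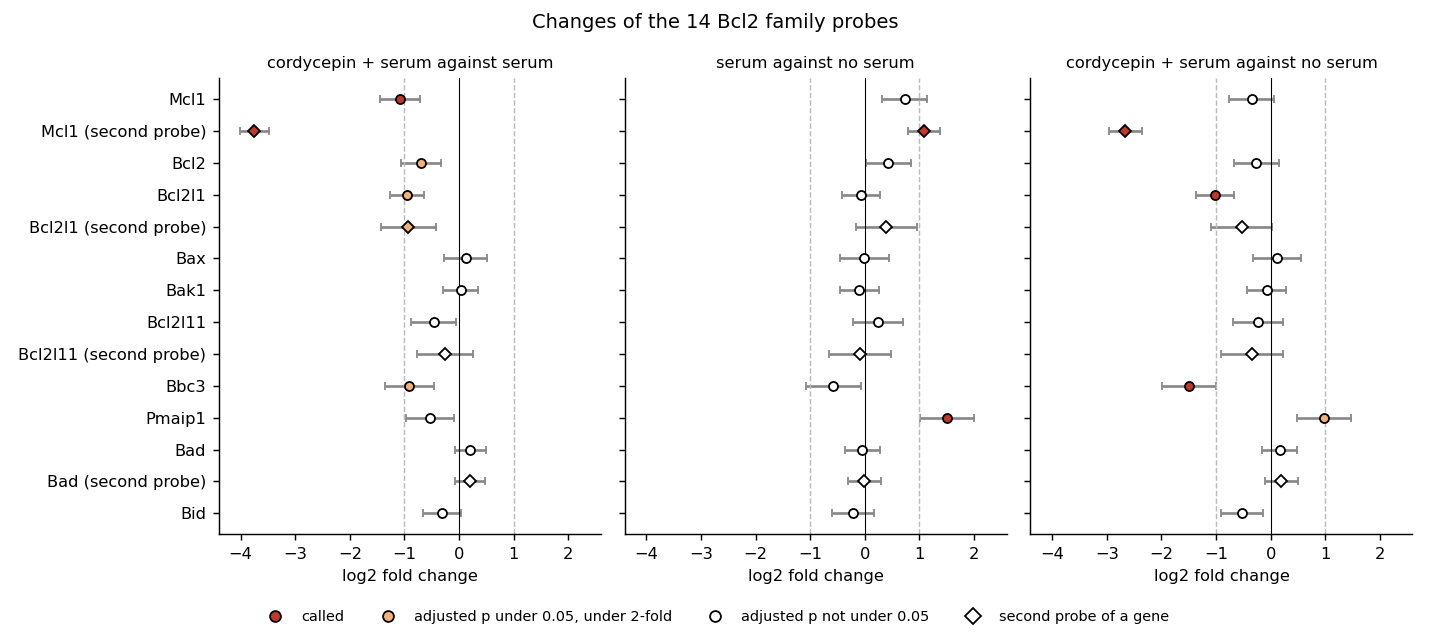
Log2 fold change of all 14 member probes with 95% confidence intervals in the 3 comparisons, circles for reference probes and diamonds for second probes, dashed lines at the fold limit of 1. Red symbols were called, orange ones had an adjusted p under 0.05 without reaching the limit, and the second Mcl1 probe stands alone at -3.75 for cordycepin plus serum against serum.

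The wider apoptosis machinery was described from 5 further lists on 1 reference probe per gene. Of 18 other Bcl2 family genes 16 were on the array and 10 were tested, and 0 of these were called in any comparison. At an unadjusted limma p under 0.05, 1 was lower and 2 were higher for cordycepin plus serum against serum, beside 12.6% and 18.5% of all probes. With serum alone 1 was higher, beside 4.19%. For cordycepin plus serum against no serum 1 was lower and 3 were higher, beside 11.3% and 15.5%. In the cordycepin comparison with serum, Bmf, a BH3-only gene, was lower by 0.61 ± 0.12 (log2 fold change -0.61, adjusted p = 0.0099) and Bcl2l15 higher by 0.99 ± 0.13 (adjusted p = 0.00100), both under the fold limit, and the median was 0.03. Bcl2l2, which encodes the prosurvival protein BCL-w, differed by -0.09 ± 0.11.

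Of 20 genes of the apoptosome, caspases and their inhibitors, all 20 were tested and 0 were called in any comparison, with a median of 0.08 for cordycepin against serum. At an unadjusted limma p under 0.05 the count was 0 for cordycepin against serum, beside 12.6% of all probes lower and 18.5% higher. It was 1 lower with serum alone and 1 lower for cordycepin plus serum against no serum, beside 6.11% and 11.3%. Xiap, a caspase inhibitor, differed by 0.23. Of 9 genes that act on MCL1 protein or bind it, 0 were called for cordycepin against serum. At an unadjusted limma p under 0.05, 2 of them were lower, beside 12.6% of all probes. Ier3, an early response gene whose product interacts with MCL1, rose by 2.11 ± 0.13 with serum (adjusted p = 0.0002) and differed by -0.76 ± 0.11 with cordycepin (adjusted p = 0.0021). Huwe1 and Fbxw7, ubiquitin ligase genes for MCL1, differed by -0.09 and -0.24 with cordycepin.

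Of 12 death receptor and adaptor genes 9 were tested, and 2 fell with cordycepin against serum, where 2.99% of all probes were called lower. Traf2, an adaptor of TNF receptor signalling, fell by 1.68 ± 0.14 on the log2 scale (adjusted p = 9.76e-05), and Tnfrsf12a, the receptor for TWEAK, fell by 1.56 ± 0.15 (adjusted p = 0.00021). Fasl, Tnf and Tnfsf10 were not tested because they were not well above background throughout any group. Of 13 transcription factors known to act on members, 2 were called lower beside the same 2.99%. Myc fell by 2.28 ± 0.27 (adjusted p = 0.00057) and Jun by 1.44 ± 0.13 (adjusted p = 0.00016) with cordycepin against serum. By the adjusted p alone 4 of the 13 were lower and 0 higher, against 7.71% and 11.7% of all probes. Beside Myc and Jun these were Ddit3 (-0.75 ± 0.14, adjusted p = 0.0068) and Srf (-0.65 ± 0.12, adjusted p = 0.0053), both under the fold limit. At an unadjusted limma p under 0.05, 6 of the 13 were lower and 0 higher, against 12.6% and 18.5% of all probes. Trp53, whose product activates Bbc3, Pmaip1 and Bax, differed by -0.04 ± 0.27. Foxo3, an activator of Bcl2l11, differed by 0.19 ± 0.25 and Foxo1 by -0.38 ± 0.15 (adjusted p = 0.125). With serum alone, 2 were called higher, against 0.878% of all probes: Jun rose by 1.61 ± 0.15 and Srf by 1.42 ± 0.13.

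**Figure D5:**
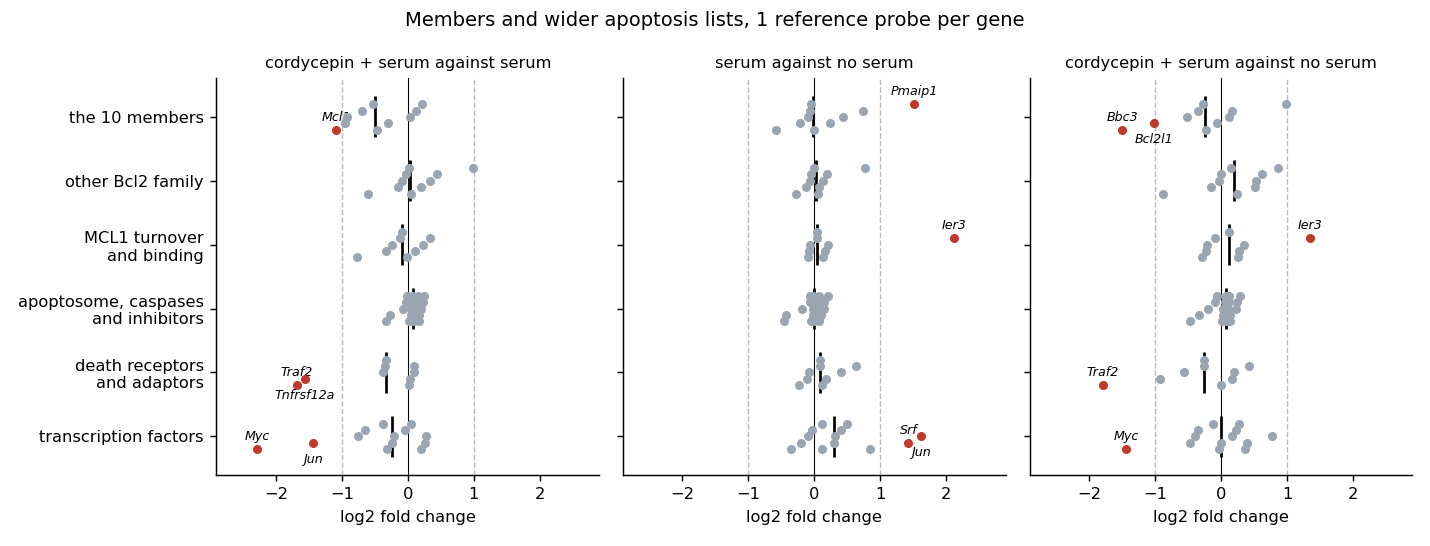
Log2 fold change of each tested gene of the 10 members and of 5 wider lists, 1 reference probe per gene, in the 3 comparisons. Red points with names were called, grey points were not, black bars are list medians and dashed lines mark the fold limit. The caspase list had no called gene in any comparison and a median of 0.08 for cordycepin plus serum against serum.

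The genes whose pattern was most like that of the Mcl1 reference probe were sought among 17892 tested RefSeq mRNA probes of 13419 symbols, by the Euclidean distance over the 8 arrays after each probe was centred on its own mean. The 5 nearest were Tnfaip3 (distance 0.36), Sde2 (0.39), Irf2bpl (0.40), Slc2a1 (0.40) and Bcl6 (0.41). Their cordycepin differences from serum ran from -1.04 for Tnfaip3 to -0.90 for Sde2, beside -1.08 for Mcl1, and their serum differences ran from 0.50 for Irf2bpl to 0.89 for Tnfaip3. Pearson's r with Mcl1 was 0.96 to 0.98 over 8 arrays, which share 3 groups. The genes were chosen for nearness on these same arrays, so r and the differences are given as a description.

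Promoter windows of 300 bases, 250 before and 50 after the start, were available from RefSeq (build GRCm38.p6) for 9 of the 10 members. Both strands were searched for the CArG box, for the CRE site TGACGTCA and its part TGACG, for the ETS core GGAAG and its extension CCGGAAG, and for the AP-1 site TGANTCA, the E-box CACGTG and the TATA box (TATAAA). No member window held a CArG box, a whole CRE, an AP-1 site or a TATA box, which were in 1.63, 1.79, 7.81 and 13.6% of 32851 promoters. TGACG, in 20.8% of all promoters, was found in windows of Mcl1 (position 17), Bcl2 (-107) and Bbc3 (-55). The other Bbc3 windows and all Bcl2l1 windows held none, although Bcl2l1 was also lower with cordycepin at an adjusted p under 0.05. A link between the motif and the changes was not tested. GGAAG, in 71.4%, occurred 4 times in the Mcl1 window, at -190, -85, -61 and 2, and also 4 times in the Bak1 window. The third in Mcl1 lies within CCGGAAG, which 8.86% of promoters hold and which windows of Bcl2l11 and Bcl2l1 also held. The E-box, in 7.15%, was found 2 times in the Bax window and 1 time in a Bbc3 window. The 250 bases before the start are printed for Mcl1, Bcl2 and Bbc3, which were chosen after their values were seen. They were picked for being lower with cordycepin at an adjusted p under 0.05 and for holding TGACG, so this pairing is no result. Some members, Bbc3 among them, had several windows and so more places for a match. The printed bases read 5′ to 3′ on the strand of the gene, with GGAAG and TGACG in capitals. Capitals also mark them where they lie on the other strand (then written CTTCC or, for the CRE part, CGTCA).
Mcl1, chr3:95658471-95658720, + strand: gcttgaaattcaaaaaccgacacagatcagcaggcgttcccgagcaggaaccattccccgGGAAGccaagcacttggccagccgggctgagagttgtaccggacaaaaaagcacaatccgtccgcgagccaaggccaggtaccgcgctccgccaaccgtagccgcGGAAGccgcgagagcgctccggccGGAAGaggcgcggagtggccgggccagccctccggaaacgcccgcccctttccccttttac
Bcl2, chr1:106714291-106714540, - strand: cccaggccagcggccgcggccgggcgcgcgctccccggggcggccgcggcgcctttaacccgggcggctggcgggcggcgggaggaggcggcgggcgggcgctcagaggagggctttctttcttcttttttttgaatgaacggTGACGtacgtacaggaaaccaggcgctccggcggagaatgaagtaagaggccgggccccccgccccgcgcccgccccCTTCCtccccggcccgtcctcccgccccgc
Bbc3, chr7:16309333-16309582, + strand: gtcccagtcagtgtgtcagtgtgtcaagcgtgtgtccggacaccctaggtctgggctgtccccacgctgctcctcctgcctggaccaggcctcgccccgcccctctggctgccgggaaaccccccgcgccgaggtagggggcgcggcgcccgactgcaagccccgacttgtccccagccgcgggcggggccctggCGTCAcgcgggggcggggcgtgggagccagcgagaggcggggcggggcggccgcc
The TGACG of Mcl1 lies after the start and outside the printed stretch. A match says only that these letters are present.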

How the data were processed

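One scanner output per array was deposited. Per the file headers, the authors extracted spot intensity on a linear scale with Agilent Feature Extraction 10.7.3.1, which subtracts background to give a processed signal and flags outlier spots and spots well above background. Probe positions are in mm9. The study's methods name limma without a design.

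Control spots and outlier spots were left out, spots of a probe were averaged, and the array's 75th percentile over probes was subtracted from log2 processed signals. Probes were tested where 1 group or more had them well above background throughout (30859 of 55681), with limma 3.58.1 in R 4.3.3, 1 mean per group over all 8 arrays, no covariate, two-sided, with Benjamini-Hochberg adjustment. All changes are relative to the array's 75th percentile. Probe pairs of a gene were tested on within-array differences. The calculation was tested on simulated data. All 8 arrays shared 1 slide and 1 scan, which leaves no such batch to test, and the number of arrays limits precision. Members, lists and tests were chosen with earlier results of these data known. All members were named with every probe, wider-list genes where called for cordycepin against serum, and other list genes for their role or adjusted p after their values were seen. Alternatives changed the background correction, normalisation, filter, blocks, thresholds, the arrays included and, chosen after seeing the data, the percentile (over spots). A search of the proteins for the BH3 motif was not made.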

Additional observations from a re-analysis of the deposited data

How the results depend on the processing

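Of 888 values of single probes and of the Mcl1 pair under alternatives, 831 kept their direction and side of the threshold, 16 passed it only under the alternative, 13 no longer passed it and 28 changed sign, all 28 for probes not called. The 831 include alternatives that could not move a value, such as a changed threshold or an array outside the comparison left out. The count of members called lower for cordycepin plus serum against serum (1) was 0 with spike-in centring and 4 by the adjusted p alone, and ran from 1 to 2 when 1 array was left out. The members called also changed. Without serum array 1 it was Bcl2l1 in place of Mcl1, and without cordycepin array 3 it was Bcl2l1 and Bbc3 without Mcl1. The count called higher by serum (1) was 0 with normexp, with spike-in centring, without the filter on dim probes and with only the 2 groups compared, was 2 with any tested probe of a member, and ran from 0 to 1 when 1 array was left out. Against no serum, cordycepin plus serum gave 1 member called lower with spike-in centring in place of 2 and 1 to 2 when 1 array was left out, and 1 called higher in place of 0 with the slide row as a block and by the adjusted p alone, and 0 to 1 when 1 array was left out. The cause was not tested. Spike-in centring moved the median of all probes to -0.36 in the serum comparison and -0.33 for cordycepin plus serum relative to no serum, and normexp to 0.11 for cordycepin plus serum against serum and 0.14 against no serum.

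Signs changed as follows. For cordycepin plus serum against serum, Bak1 was -0.014 with normexp and with the slide row as a block, -0.012 with quantile normalisation, -0.024 with spike-in centring and -0.057 to 0.14 when 1 array was left out, and the second Bcl2l11 probe was 0.065 with normexp. For serum, the reference probe of Bcl2l11 was -0.11 with spike-in centring and its second probe 0.047 with normexp, and with 1 array left out Bax ran from -0.26 to 0.25, Bcl2l11 from -0.070 to 0.55 and -0.45 to 0.28, and Bad from -0.14 to 0.054 and -0.064 to 0.041, on reference and second probe. Against no serum, spike-in centring gave Bax -0.29 and Bad -0.24 and -0.21, normexp gave the second Bcl2l11 probe 0.11, and with 1 array left out Bax ran from -0.14 to 0.37, Bak1 from -0.16 to 0.040, and Bcl2l11 from -0.53 to 0.085 and -0.70 to 0.028.

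Correlations of same-numbered deviations ran from -0.17 to 0.23, and those of different-numbered ones from -0.32 to 0.32. Deviations within a group cancel by construction, so these few correlations cannot settle whether the replicate numbers pair the arrays. A replicate block left every count of members called as it was (1 lower and 0 higher for cordycepin plus serum against serum), and turned Bax to 0.0079 for serum. Within row 1 of the slide (2 cordycepin arrays, 1 serum array) the differences were -1.17 and -3.85 for the reference and second Mcl1 probes, and within row 2 (1 and 2) -1.25 and -3.68.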

Other observations

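Other probes within 10 kb of a member on the array were listed after the values were seen, as a description only. Upstream of the Mcl1 probes lie 15 probes for long intergenic non-coding RNAs on both strands (mm9, chromosome 3, 95457377 to 95461680), the nearest 3863 bases from the second Mcl1 probe. Of 4 that were above background on all arrays, 3 were called higher for cordycepin plus serum against serum, opposite in sign to Mcl1, where 7.56% of all tested probes were called higher. A further 7 were tested, of which 2 passed the filter through the cordycepin arrays alone. On the probe at 95458868, on the strand of Mcl1 and above background on all arrays, the mean was -1.04 with cordycepin, -3.61 with serum and -3.42 without serum (difference from serum 2.56, adjusted p = 6.7e-05). On the opposite strand, the probe at 95457377 had means of -1.91, -3.74 and -3.02 (difference 1.82, adjusted p = 9.3e-05).

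Between the 2 Bcl2l1 probes, on the same strand, a cDNA probe named BB166591 had means of 1.56 with cordycepin, 2.95 with serum and 2.28 without serum (difference from serum -1.38, adjusted p = 0.0142), so it fell together with both Bcl2l1 probes.

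The 5 genes whose pattern was nearest to the second Mcl1 probe, looked up after its values were seen, were Arid5a (distance 0.63), Chac1 (0.91), Smcr8 (1.09), Zbtb9 (1.35) and Plekhf1 (1.37).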
